A study of Mus musculus with 6 samples.

Results

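The genes described here encode oxidative phosphorylation (OXPHOS), the respiratory chain and ATP synthase of the inner mitochondrial membrane. They were chosen by name: protein-coding genes of the count table whose symbols begin with Nduf, Sdha to Sdhd, Uqcr, Cox4 to Cox8, Atp5, mt-Nd, mt-Co, mt-Atp or mt-Cyt, with at least 10 reads over all samples. Of 106 genes with such symbols, 95 had enough reads, 87 encoded in the nucleus and 8 in the mitochondrial genome, among 11877 genes tested. The 11 others were listed at 0 in every sample, and no gene lay between 0 and 10 reads. Just inside the limit were Cox7a1 with 10 reads over all samples, Cox6b2 with 20, Atp5l with 23 and Atp5s with 26.

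The cells were splenic CD4+ T cells sorted as Nr4a3-Blue+Red+ from Tg4 Tiger Nr4a3-Tocky mice. All mice carried a transgenic T cell receptor for a myelin basic protein peptide, an Il10-GFP reporter, and a Timer protein driven by Nr4a3, whose short-lived blue form matures to a long-lived red form. At this time after the second peptide dose, Blue+Red+ marks mainly cells that had responded to the first dose and responded again to the second. Every mouse had received 80 μg of peptide, then 800 μg of antibody 24 h later, and a further 8 μg of peptide 30 min after the antibody, with spleens taken 4 h after that. The antibody was an isotype pool (rat IgG1 and IgG2a), anti-PD1 (clone 29F.1A12) or anti-Lag3, with 2 samples per group. A further replicate batch, which the study's methods describe as excluded, was not used here.

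OXPHOS couples the passage of electrons to the synthesis of ATP. Complex I takes electrons from NADH and complex II from succinate, complex III passes them to cytochrome c, complex IV hands them to oxygen, and complex V (ATP synthase) makes ATP from the proton gradient that complexes I, III and IV build. Complexes I, III, IV and V are assembled from nuclear and mitochondrial gene products, and complex II from nuclear ones alone. In T cells, mitochondrial respiration is known to be remodelled after activation, and signalling through PD1 has been linked to altered metabolism.

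Total counts ran from 2107715 to 2648920 per sample. The libraries read the 3′ end of transcripts, so a level here is a scaled tag count (TMM-scaled CPM, a count set relative to library size) and was not divided by transcript length. Gm42418, a gene known to overlap a ribosomal RNA repeat, took 17.4 to 21.0% of counts and the 2 mitochondrial ribosomal RNAs took 6.38 to 7.26%. The 6 CD4 T cell markers summed to 1582 and 1840 plain CPM in isotype, 1522 and 1699.5 in anti-PD1, and 1806 and 1732 in anti-Lag3. In anti-PD1 against isotype their median log2 fold change was -0.27. In that comparison 4 of 6 (Cd3e, Cd3g, Cd4 and Trbc2) were lower in both anti-PD1 samples (18.2% of all genes). An unadjusted p under 0.05 in edgeR was found for 3 (8.12% of all genes). Also, 4 of 6 were lower in both anti-PD1 samples than in both anti-Lag3 samples (17.7% of all genes), with none called. B cell markers summed to 117 and 135 plain CPM in isotype, 63.6 and 54.3 in anti-PD1, and 84.9 and 126 in anti-Lag3, with Cd79a at 0 in all samples, and 7 of 7 tested had a log2 fold change below 0 in each antibody group against isotype. Igkc and Ighm were called in anti-PD1 against isotype, and Ighm against anti-Lag3. Macrophage and dendritic cell markers summed to 67.0 and 62.7 in isotype and to 14.2 to 37.4 in the other samples, with Itgax under 10 reads, and C1qa was called in anti-PD1 against isotype. Both CD8 markers were lower in all antibody samples, with sums of 52.5 and 47.95 in isotype and 30.2 to 34.5 in the 4 others. Neutrophil markers summed to 7.24 and 19.6 in isotype, 6.64 and 5.39 in anti-PD1, and 4.31 and 1.51 in anti-Lag3, with Ly6g at 0. Erythroid markers summed to 18.5 to 51.3 with overlapping groups. The 3 genes of reporter activation (Nr4a3, Nr4a1 and Egr2) summed to 102 and 83.1 in isotype, 78.8 and 67.1 in anti-PD1, and 84.1 and 95.9 in anti-Lag3. In each antibody group against isotype, 2 of these 3 had a log2 fold change below 0 and 1 above, with none called. The part of these markers in the OXPHOS values was not tested. In sorted bulk samples, fewer cells of a type and less RNA per cell cannot be told apart.

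No OXPHOS gene passed an adjusted p of 0.05 in any comparison, and the summed level of the nuclear genes was highest in the anti-Lag3 samples. The 87 nuclear genes summed to 12206 and 12428 CPM in isotype, 11791 and 12392 in anti-PD1, and 12988 and 12846 in anti-Lag3. Both anti-Lag3 samples thus lay above the 4 other samples. The 8 mitochondrial genes summed to 20345 and 21609 CPM in isotype, 21743 and 22660 in anti-PD1, and 22101 and 21649 in anti-Lag3. In these sums isotype lay lowest, with its replicate 2 close to anti-Lag3 replicate 2, and the antibody groups overlapped. mt-Nd1 alone took 5031 and 5529 CPM in isotype and 6614 and 6047 in anti-Lag3. Gene by gene, 4 of 8 log2 fold changes were above 0 with anti-Lag3 against isotype, with a median of -0.01. By median deviation from the genes' own means, the anti-Lag3 samples were lowest (-0.036 and -0.021), with isotype at -0.010 and -0.001. As shares of all counts, nuclear OXPHOS genes made up 1.17 and 1.23% in isotype, 1.17 and 1.26% in anti-PD1, and 1.33 and 1.31% in anti-Lag3. Gm42418, which takes part in that total, was lower than isotype in both antibody groups, at log2 fold changes of -0.17 (adjusted p 0.0266) and -0.23 (adjusted p 0.0161) for anti-PD1 and anti-Lag3.

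Counted gene by gene, edgeR called 0 of 95 in anti-PD1 against isotype, where 0.901% of all genes were called, 0 of 95 in anti-Lag3 against isotype (0.0421% of all genes), and 0 of 95 in anti-PD1 against anti-Lag3 (0.303% of all genes). At an unadjusted p under 0.05 the counts were 4, all lower with anti-PD1 (8.12% of all genes in either direction), 7, of which 6 were higher with anti-Lag3 (5.96%), and 10, of which 8 were lower with anti-PD1 than with anti-Lag3 (6.53%). DESeq2 also called 0 in each, and limma-voom called 0, 1 (mt-Nd1) and 0. The fits give a limit as well: the 95% interval of the fold change lay within 1.5-fold in both directions for 73, 72 and 68 of the 95 genes in the 3 comparisons, and within 2-fold for 86, 85 and 84. The 3 comparisons share samples and are not independent of each other.

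Counts of nuclear genes whose groups did not overlap leaned one way between the antibodies, and the few mitochondrial genes did not share this. Between anti-PD1 and anti-Lag3, 37 of 95 genes had both anti-PD1 samples below both anti-Lag3 samples, where 17.7% of all genes did, and 8 the reverse (18.2% of all genes). By genome, 35 of 87 nuclear genes were lower and 4 higher. Of the 8 mitochondrial genes 2 were lower and 4 higher, with a median log2 fold change of 0.07. Among genes with a mean of at least 20 CPM, 34 of 84 OXPHOS genes were lower in this sense, with 980 of 5433 for all such genes. In anti-PD1 against isotype the counts were 13 higher (19.2% of all genes) and 20 lower (18.2%). In anti-Lag3 against isotype they were 24 higher (17.3%) and 15 lower (17.3%). The median log2 fold change of the nuclear genes was -0.03 in anti-PD1 against isotype, 0.04 in anti-Lag3 against isotype, and -0.11 in anti-PD1 against anti-Lag3, with medians over all genes within 0.01 of 0. With each of the 6 samples left out in turn, the first of these ran from -0.048 to 0.00904, above 0 without anti-PD1 replicate 1. The second ran from 0.012 without anti-Lag3 replicate 1 to 0.067 without anti-Lag3 replicate 2. The last ran from -0.123 to -0.064, nearest to 0 without anti-Lag3 replicate 1.

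**Figure D1:**
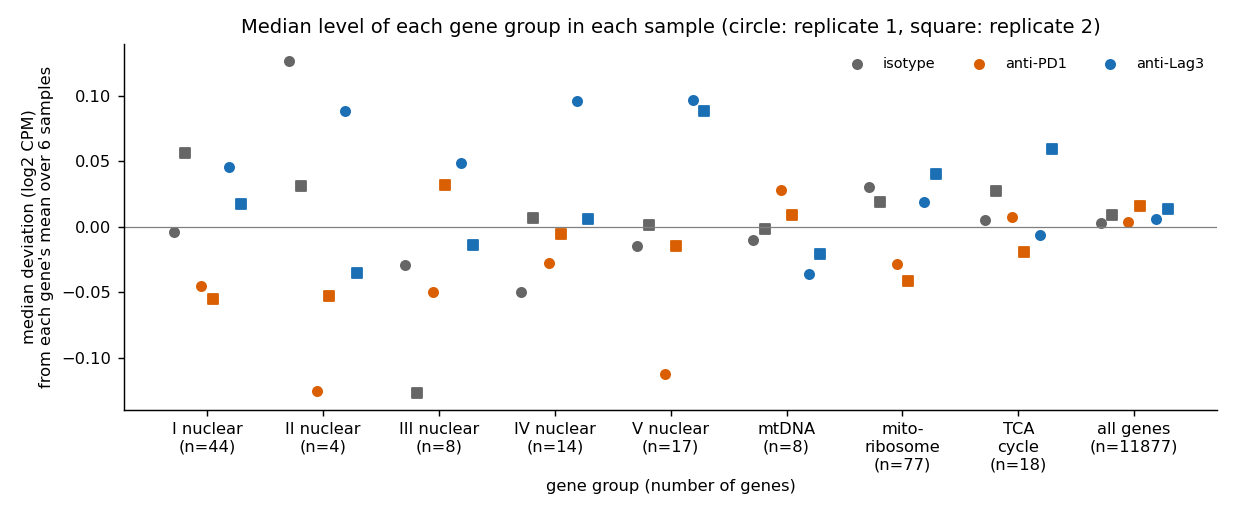
Median deviation of each gene group from the genes' own means over 6 samples (log2 CPM), per sample, with circles for replicate 1 and squares for replicate 2. Complex V stands at 0.10 and 0.09 in the anti-Lag3 samples and between -0.11 and 0.00 in the other 4, and complex I stands at -0.04 and -0.06 in the anti-PD1 samples.

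Complex V was the group in which the anti-Lag3 samples stood furthest from the others, by the median deviation of its genes. Its 17 nuclear genes summed to 4038 and 4225 CPM in isotype, 3948 and 4312 in anti-PD1, and 4479 and 4552 in anti-Lag3. Against isotype, 14 of 17 had a log2 fold change above 0 with anti-Lag3, with a median of 0.15, and 6 of 17 had both anti-Lag3 samples above both isotype samples, while none had both below (17.3% of all genes in each direction). Without isotype replicate 1 that median was 0.10. Against anti-PD1, 9 of 17 were lower in both anti-PD1 samples (17.7% of all genes) and none higher (18.2%), with a median of -0.14. In anti-PD1 against isotype the median was -0.01, with 8 above 0 and 9 below.

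All 5 genes of the F1 head, the catalytic part, had log2 fold changes above 0 with anti-Lag3 against isotype. In 3 of the 5, both anti-Lag3 samples lay above both isotype samples (17.3% of all genes). Atp5c1 at 0.02 (SE 0.13) and Atp5d at 0.01 (SE 0.12) were close to 0 with overlapping groups. Atp5b, which encodes the catalytic beta subunit, had 522 and 532 CPM in isotype, 546 and 548 in anti-PD1, and 638 and 618 in anti-Lag3. Its 2 anti-Lag3 samples were the highest of the 6, with a log2 fold change of 0.25 (SE 0.10) against isotype and an adjusted p of 0.690. Atp5a1, the alpha subunit and the nuclear member with the highest CPM, had 659 and 759 CPM in isotype, 688 and 783 in anti-PD1, and 792 and 827 in anti-Lag3. Its groups separated between anti-Lag3 and each of the others, at log2 fold changes of 0.19 (SE 0.10) against isotype and -0.14 (SE 0.10) for anti-PD1 against anti-Lag3. Atp5e, the epsilon subunit, had 235 and 242 CPM in isotype, 234 and 240.0 in anti-PD1, and 267 and 263 in anti-Lag3.

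Of the 11 genes of the membrane part and stalk of complex V, 8 had log2 fold changes above 0 with anti-Lag3 against isotype. Atp5k, the e subunit, had 355 and 329 CPM in isotype, 295 and 316 in anti-PD1, and 342 and 400.0 in anti-Lag3. Both anti-PD1 samples were the lowest, with a log2 fold change of -0.28 (SE 0.11) against anti-Lag3 and an adjusted p of 0.585. Atp5o, the stalk subunit OSCP, had 227 and 200.5 CPM in isotype, 172 and 183 in anti-PD1, and 197 and 204 in anti-Lag3, with a log2 fold change of -0.27 (SE 0.13) for anti-PD1 against isotype and an adjusted p of 0.578. Again both anti-PD1 samples were the lowest.

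The c subunit of the rotor is encoded by 3 genes whose mature proteins are identical. Atp5g3 had 643 and 706 CPM in isotype, 661 and 801 in anti-PD1, and 684 and 750 in anti-Lag3. Atp5g1 had 64.0 to 77.2 CPM and Atp5g2 1.44 to 7.77 CPM over the 6 samples. Atp5g3 was the highest of these tag counts in every sample, with overlapping groups. The last 300 bases of the Atp5g2 transcript match the pseudogene Gm10175 at 98.7% of bases, so its 76 reads are an uncertain measure.

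**Figure D2:**
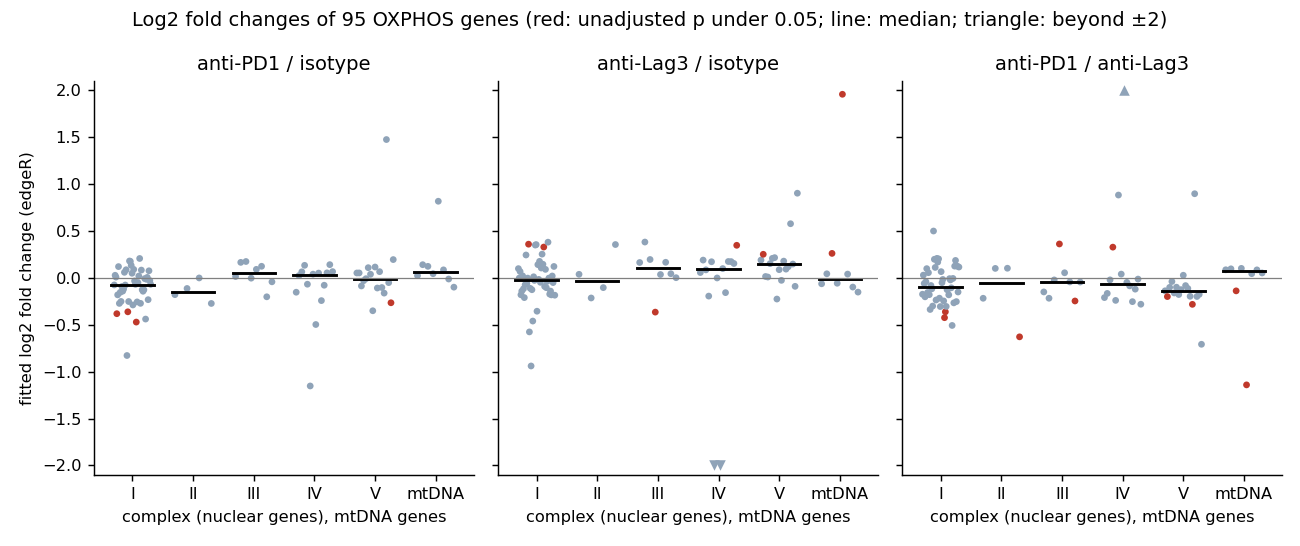
Fitted log2 fold changes of the 95 genes by complex (nuclear genes) and for the mitochondrial genes (mtDNA), in each comparison, with the median as a line, red for an unadjusted p under 0.05 and triangles for values beyond the axis. Complex V medians are 0.15 with anti-Lag3 against isotype and -0.14 with anti-PD1 against anti-Lag3.

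Complex I, the largest complex, had lower summed levels with anti-PD1 than in either other group. Its 44 nuclear genes summed to 3803 and 3865 CPM in isotype, 3572 and 3647 in anti-PD1, and 3878 and 3826 in anti-Lag3. The anti-PD1 samples were therefore below the 4 others, whose groups overlapped. In anti-PD1 against isotype 29 of 44 log2 fold changes were below 0, with a median of -0.07, and 11 genes had both anti-PD1 samples below both isotype samples (18.2% of all genes) and 5 above (19.2%). Against anti-Lag3 30 of 44 were below 0, with a median of -0.09, and 16 genes had both anti-PD1 samples lower (17.7% of all genes) against 1 gene, Ndufaf2, with both higher (18.2%). The median for the 7 nuclear core subunits, which form the arm that takes up electrons, was -0.13 in anti-PD1 against isotype, that for the 29 supernumerary subunits -0.07, and that for the 8 Ndufaf assembly factors 0.01.

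Ndufb5, a supernumerary subunit of the membrane arm, had the smallest p of the nuclear genes. It had 137 and 132 CPM in isotype, 101 and 93.6 in anti-PD1, and 136 and 124 in anti-Lag3. Both anti-PD1 samples lay below all others. The log2 fold change was -0.47 (SE 0.15) against isotype, adjusted p 0.146, and -0.42 (SE 0.15) against anti-Lag3, adjusted p 0.425. Its fold change against isotype kept its direction in every refit, with adjusted p no lower than 0.0933.

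Ndufa12, a supernumerary subunit, had 179.5 and 183 CPM in isotype, 139 and 139 in anti-PD1, and 142 and 178 in anti-Lag3. The log2 fold change of anti-PD1 against isotype was -0.38 (SE 0.14), adjusted p 0.283. Ndufaf4, an assembly factor, had 142 and 155 CPM in isotype, 128 and 104 in anti-PD1, and 120.2 and 152 in anti-Lag3, at -0.36 (SE 0.15) and an adjusted p of 0.456. For both genes the anti-PD1 samples lay below isotype, and the anti-Lag3 samples were apart from each other. Ndufb6, also a membrane arm subunit, had 79.6 and 88.6 CPM in isotype, 78.1 and 63.4 in anti-PD1, and 94.5 and 86.9 in anti-Lag3, at -0.36 (SE 0.17) for anti-PD1 against anti-Lag3 with an adjusted p of 0.740.

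Some other complex I genes stood higher with anti-Lag3 than with isotype, but the complex as a group did not. In that comparison 18 of 44 log2 fold changes were above 0 and 26 below, with a median of -0.02. Both anti-Lag3 samples lay above both isotype samples in 8 genes and below in 7 (17.3% of all genes in each direction). Ndufb9 had 106.5 and 98.6 CPM in isotype, 115 and 121 in anti-PD1, and 111 and 146 in anti-Lag3, at a log2 fold change of 0.33 (SE 0.15), adjusted p 0.800. Ndufab1, the mitochondrial acyl carrier protein, had 72.1 and 76.1 CPM in isotype, 69.5 and 84.6 in anti-PD1, and 85.6 and 104 in anti-Lag3, at 0.36 (SE 0.17), adjusted p 0.810. In both genes anti-Lag3 replicate 2 was the highest of all samples, and without it the log2 fold changes were 0.13 and 0.22. Ndufa10, the nuclear complex I gene with the highest CPM, lay between 175 and 191 CPM in all samples with overlapping groups, and its 95% interval on the log2 scale was -0.23 to 0.28 in anti-PD1 against isotype.

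**Figure D3:**
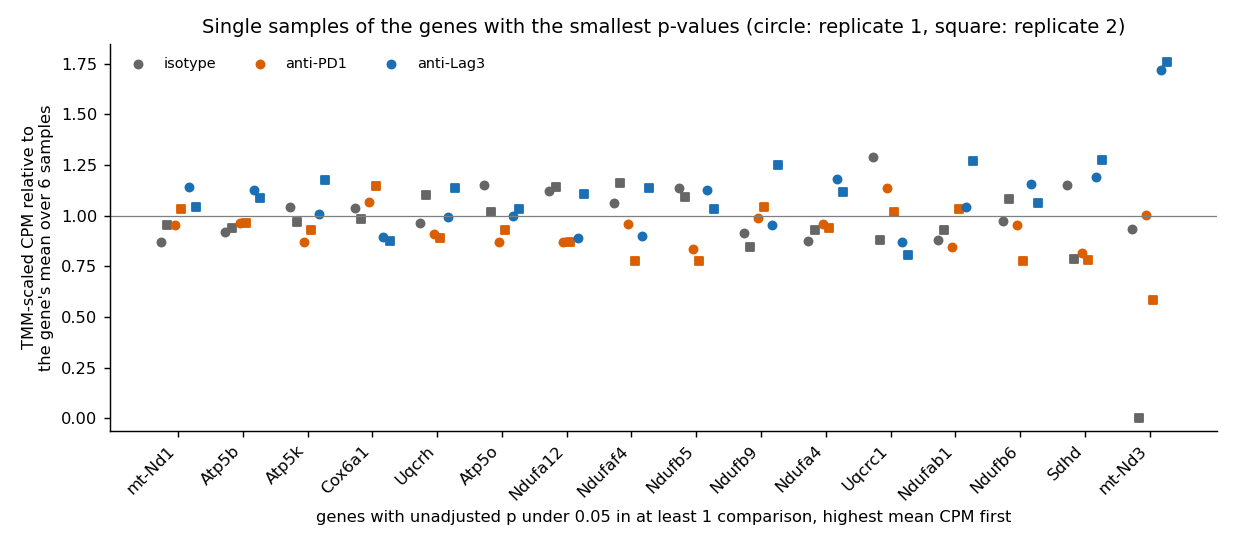
TMM-scaled CPM of 16 genes with an unadjusted p under 0.05 in at least 1 comparison, per sample and relative to each gene's mean over the samples. Ndufb5 and Ndufa12 show the anti-PD1 samples below isotype, and for mt-Nd3 the square at 0 is isotype replicate 2.

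Complex II, which is also the succinate dehydrogenase of the TCA cycle, had all 4 log2 fold changes at or below 0 in anti-PD1 against isotype, with a median of -0.15. Sdhd, a membrane anchor, had 45.2 and 31.0 CPM in isotype, 32.1 and 30.7 in anti-PD1, and 46.8 and 50.1 in anti-Lag3. The antibody groups separated at a log2 fold change of -0.63 (SE 0.23) for anti-PD1 against anti-Lag3, adjusted p 0.520, while isotype replicate 2 lay among the anti-PD1 samples and isotype replicate 1 between the antibody groups. Sdhb, the iron-sulfur subunit, had 218 and 209 CPM in isotype, 196 and 198 in anti-PD1, and 199 and 169 in anti-Lag3, below isotype in every antibody sample. Sdha, the flavoprotein, had 157 and 143 CPM in isotype, 123 and 142 in anti-PD1, and 163 and 146 in anti-Lag3, at -0.18 (SE 0.14) and 0.04 (SE 0.14) against isotype.

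In complex III, 7 of 8 nuclear genes had log2 fold changes above 0 with anti-Lag3 against isotype, with a median of 0.10, and Uqcrc1 was the exception. Only 2 of 8 had both anti-Lag3 samples above both isotype samples and 1 had both below (17.3% of all genes in each direction). Uqcrc1, a core protein, had 123 and 83.7 CPM in isotype, 108 and 96.9 in anti-PD1, and 82.7 and 76.9 in anti-Lag3. Its anti-Lag3 samples were the lowest, at -0.36 (SE 0.17) against isotype, adjusted p 0.803, but the isotype samples differed by more than that and without isotype replicate 1 the log2 fold change was -0.06, and -0.62 without isotype replicate 2. Uqcrh, the hinge protein, had 235 and 268 CPM in isotype, 221 and 217 in anti-PD1, and 242 and 277 in anti-Lag3, at -0.25 (SE 0.12) for anti-PD1 against anti-Lag3, adjusted p 0.755. Uqcrq, the nuclear gene of the complex with the highest CPM, spanned 286 to 322 CPM with overlapping groups.

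Complex IV had values in both directions, and Cox6a1 went against its neighbours. Its 14 nuclear genes, with Ndufa4 counted here because its product is a subunit of complex IV, summed to 2486 and 2521 CPM in isotype, 2489 and 2589 in anti-PD1, and 2717 and 2584 in anti-Lag3. Cox6a1, a subunit with tissue-specific forms, had 325 and 308 CPM in isotype, 334 and 359.8 in anti-PD1, and 279.6 and 273 in anti-Lag3. The 3 groups did not overlap, with anti-PD1 highest and anti-Lag3 lowest, with a log2 fold change of 0.33 (SE 0.11) for anti-PD1 against anti-Lag3 and an adjusted p of 0.380. Its 3′ end matches another annotated transcript, AC148174.2, at 91.3% of 300 bases.

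Ndufa4 and Cox5a stood highest in the anti-Lag3 samples. Ndufa4, the complex IV subunit first assigned to complex I, had 95.2 and 101 CPM in isotype, 104 and 102 in anti-PD1, and 129 and 121 in anti-Lag3, at 0.35 (SE 0.15) against isotype, adjusted p 0.766. Cox5a had 265 and 308 CPM in isotype, 295 and 289 in anti-PD1, and 319 and 336 in anti-Lag3, for this matrix-side subunit, at 0.19 (SE 0.11), adjusted p 0.885. In both genes the 2 anti-Lag3 samples were above the 4 others, and for Cox5a the isotype samples lay apart. Cox6c, the nuclear complex IV gene with the highest CPM, spanned 308 to 349 CPM with no order of groups.

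Among the paired forms of complex IV subunits, reads came mainly from the widely expressed form. Cox4i1 had 223 to 285 CPM and Cox4i2 was listed at 0. Cox6a1 had 273 to 359.8 CPM and Cox6a2, the heart and muscle form, was at 0. Cox8a had 163 to 187 CPM and Cox8b and Cox8c were at 0. Cox6b1 had 161 to 201 CPM, and Cox6b2, the testis form, had 20 reads over all samples. Cox7a2 had 239 to 287 CPM and Cox7a2l 56.5 to 86.9 CPM, with the smallest p of complex IV in anti-PD1 against isotype at a log2 fold change of -0.24 (SE 0.19), while Cox7a1, the muscle form, had 1 and 5 reads in isotype, 2 and 2 in anti-PD1 and 0 and 0 in anti-Lag3. Ndufa4 had 95.2 to 129 CPM and Ndufa4l2, known as a hypoxia-induced form, was at 0. A count of 0 in a library allows up to 1.11 to 1.44 CPM, taken as 3 reads, and covers counting error only.

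The mitochondrial genome gave counts that differed widely from gene to gene. mt-Nd2 had 5918 and 5872 CPM in isotype, 6248 and 5914 in anti-PD1, and 5630 and 5703 in anti-Lag3, a spread with the anti-Lag3 samples lowest and a log2 fold change of -0.06 (SE 0.06) against isotype. mt-Nd4 spanned 3932 to 4823 CPM and mt-Nd5 1385 to 1682, with overlapping groups. mt-Co1 had 903 and 957 CPM in isotype, 965 and 927 in anti-PD1, and 891 and 891 in anti-Lag3. Its anti-Lag3 samples were the lowest, at -0.06 (SE 0.09) against isotype. mt-Nd6 had 54.2 and 57.2 CPM in isotype, 51.3 and 52.7 in anti-PD1, and 50.2 and 50.1 in anti-Lag3. Here too anti-Lag3 was lowest, at -0.15 (SE 0.20) against isotype. In edgeR mt-Nd4, mt-Nd5, mt-Co1 and mt-Nd6 had no unadjusted p under 0.05. mt-Cytb had 2816 and 3064 CPM in isotype, 3095 and 3389 in anti-PD1, and 3019 and 3043 in anti-Lag3, at 0.14 (SE 0.07) for anti-PD1 against isotype, adjusted p 0.650.

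mt-Nd1, a membrane core subunit of complex I, had the smallest p of all 95 genes. It had 5031 and 5529 CPM in isotype, 5517 and 5987 in anti-PD1, and 6614 and 6047 in anti-Lag3. Both anti-Lag3 samples were above the 4 others. The log2 fold change against isotype was 0.26 (SE 0.07), which is 1.20-fold, with an adjusted p of 0.312. limma-voom gave an adjusted p of 0.00118, edgeR without anti-Lag3 replicate 2 gave 0.0289, and edgeR with no filter beyond 1 read gave 0.0199, and the highest among the alternatives was 0.935 with DESeq2. The log2 fold changes of the other mitochondrial genes in that comparison ran from -0.15 to 0.04 apart from mt-Nd3. Isotype replicate 1 had 26.9 reads of mitochondrial mRNA per 100 reads of mitochondrial rRNA and the 5 other libraries 30.6 to 35.7.

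mt-Nd3 had 18 and 0 reads in isotype, 19 and 13 in anti-PD1, and 37 and 43 in anti-Lag3. The anti-Lag3 samples were the highest, at a log2 fold change of 1.96 (SE 0.59) against isotype and an adjusted p of 0.593. This value turns on the library at 0. Without isotype replicate 2 the log2 fold change was 0.89, and without isotype replicate 1, which leaves the library at 0 alone in its group, edgeR called mt-Nd3 in both comparisons with isotype. Gm28438, a nuclear pseudogene with the same 3′ sequence, held 32 reads in isotype replicate 2, 0 in isotype replicate 1 and 0 or 1 in each antibody sample. Summed over both, the reads were 18 and 32 in isotype, 20 and 13 in anti-PD1, and 37 and 44 in anti-Lag3, or 8.48 and 12.9, 9.58 and 5.32, and 15.6 and 16.3 CPM, so the anti-Lag3 samples were again the highest and no sample was at 0. The difference in this sum was not tested.

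The 5 mitochondrial genes listed at 0, mt-Co2, mt-Atp8, mt-Atp6, mt-Co3 and mt-Nd4l, lie next to each other around mt-Nd3, between the well-covered mt-Co1 and mt-Nd4. A nuclear copy of the same stretch lies on mouse chromosome 1 (GRCm38, minus strand), where the annotation lists a row of pseudogenes from Gm10222 (chr1:24612407-24612700) to Gm29216 (chr1:24615706-24616197). The final 60 bases that mt-Co2, mt-Co3, mt-Nd3 and mt-Co1 share with these copies are shown, with capitals for bases that differ. There are none.

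mt-Co2 (chrM:7634-7693, plus strand; copy Gm28661; 0 reads): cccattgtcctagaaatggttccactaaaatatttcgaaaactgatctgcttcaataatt
mt-Co3 (chrM:9330-9389, plus strand; copy Gm28437; 0 reads): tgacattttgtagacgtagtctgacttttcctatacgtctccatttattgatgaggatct
mt-Nd3 (chrM:9744-9803, plus strand; copy Gm28438; 130 reads): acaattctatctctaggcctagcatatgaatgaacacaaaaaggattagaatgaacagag
mt-Co1 (chrM:6813-6872, plus strand; copy Gm29216; 13085 reads): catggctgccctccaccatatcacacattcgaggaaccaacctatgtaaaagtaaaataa

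mt-Co2, mt-Atp6 and mt-Nd3 were identical to their copies over 297 aligned bases, mt-Co3 over 299, mt-Nd4l over 294 and mt-Co1 over 300. mt-Atp8, which lies between mt-Co2 and mt-Atp6, shared 43 aligned bases with Gm10925. By contrast mt-Nd2 differed from its closest annotated copy, Gm13339 on chromosome 2, at 10 of 300 bases, 3 of them in the final 60, in capitals below for each.

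mt-Nd2 (chrM:4892-4951, plus strand; 83356 reads): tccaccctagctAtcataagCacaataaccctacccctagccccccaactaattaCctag
Gm13339 (9 reads): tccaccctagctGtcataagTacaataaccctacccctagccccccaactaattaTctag

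mt-Cytb differed from Gm11410 at 22 of 299 aligned bases and mt-Nd5 from Gm11407 at 23 of 278, and mt-Nd1 and mt-Nd4 had no annotated match over their last 300 bases. The copies on chromosome 1 held 0 to 34 reads each. Reads that map equally well to both places are a limit on every value from mt-Co1 to mt-Nd4l, and how they were counted was not tested. mt-Co1 kept 13085 reads in spite of its identical 3′ end.

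**Figure D4:**
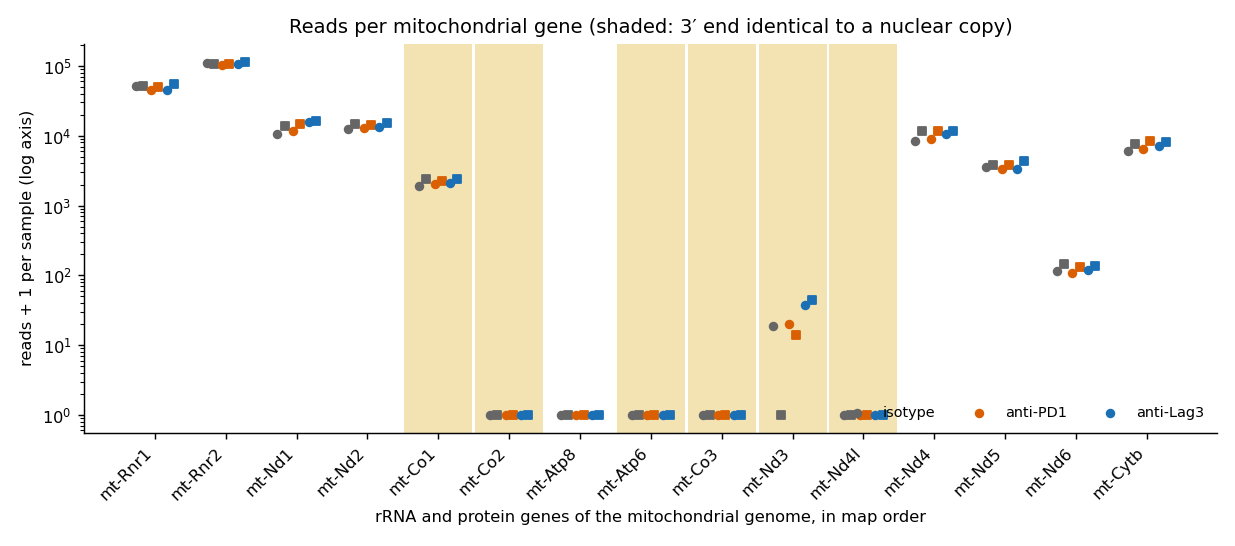
Reads plus 1 per sample (log axis) for the rRNA and protein genes of the mitochondrial genome in map order, coloured by group, with shading for genes whose 3′ end is identical to a nuclear copy. From mt-Co2 to mt-Nd4l, mt-Nd3 is the only gene above 0, with isotype replicate 2 at 0.

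Genes that serve OXPHOS showed no call either, with edgeR at an adjusted p of 0.05. Among 14 electron carriers and coenzyme Q enzymes, Cycs, cytochrome c, had 63.1 and 53.5 CPM in isotype, 61.8 and 66.7 in anti-PD1, and 67.9 and 82.5 in anti-Lag3, at 0.37 (SE 0.18) for anti-Lag3 against isotype, and Coq7 was at -0.57 (SE 0.26) for anti-PD1 against isotype. Of 37 further assembly factors tested, 6 had an unadjusted p under 0.05 in anti-PD1 against isotype, 2 higher and 4 lower, where 8.12% of all genes did. Sco1, a copper chaperone of complex IV, had 48.1 and 53.1 CPM in isotype, 67.6 and 82.6 in anti-PD1, and 59.5 and 61.3 in anti-Lag3, at 0.57 (SE 0.19), adjusted p 0.207. Bcs1l, which inserts the Rieske protein into complex III, had 19.8 and 25.0 CPM in isotype, 13.9 and 8.59 in anti-PD1, and 9.70 and 11.1 in anti-Lag3, at -1.01 (SE 0.36) and -1.10 (SE 0.36) against isotype, adjusted p 0.293 and 0.641. Both antibody groups were below isotype for Bcs1l. Cox14, an assembly factor of complex IV, had 29.7 and 46.7 CPM in isotype, 24.4 and 25.4 in anti-PD1, and 36.7 and 44.6 in anti-Lag3, at -0.71 (SE 0.26) for anti-PD1 against anti-Lag3, adjusted p 0.475.

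The 21 genes of mitochondrial DNA expression had a median log2 fold change of 0.13 in anti-PD1 against anti-Lag3, with 8 higher in both anti-PD1 samples (18.2% of all genes) and 2 lower (17.7%). Tfb1m, an rRNA methyltransferase, had 9.90 and 7.25 CPM in isotype, 11.02 and 13.1 in anti-PD1, and 7.17 and 4.09 in anti-Lag3, at 1.11 (SE 0.47), adjusted p 0.671. The 77 mitochondrial ribosomal proteins tested had medians of -0.02, 0.01 and -0.05 in the 3 comparisons. The smallest p among them belonged to Mrpl27 in anti-PD1 against isotype (-0.66, SE 0.25, adjusted p 0.373), Mrpl18 in anti-Lag3 against isotype (0.39, SE 0.14, adjusted p 0.670) and Mrpl34 in anti-PD1 against anti-Lag3 (-0.38, SE 0.16, adjusted p 0.671). Of 9 carriers and uncoupling proteins tested, 8 had log2 fold changes below 0 in anti-PD1 against anti-Lag3. Only 2 of the 9 were lower in both anti-PD1 samples (17.7% of all genes) and 0 higher (18.2%). Slc25a5, the ADP/ATP carrier, had 256 and 236 CPM in isotype, 267 and 237 in anti-PD1, and 312 and 295 in anti-Lag3. Its anti-Lag3 samples were above all others, at 0.30 (SE 0.12) against isotype, adjusted p 0.690.

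In the TCA cycle, which feeds complexes I and II, 2 of 18 genes had an unadjusted p under 0.05 in anti-PD1 against isotype, both lower, where 8.12% of all genes did. Idh3b, a subunit of NAD-linked isocitrate dehydrogenase, had 98.0 and 98.2 CPM in isotype, 70.0 and 67.9 in anti-PD1, and 81.8 and 87.7 in anti-Lag3, at -0.51 (SE 0.17), adjusted p 0.181. Suclg2, a subunit of succinyl-CoA ligase, had 16.0 and 13.7 CPM in isotype, 21.1 and 23.3 in anti-PD1, and 11.4 and 8.91 in anti-Lag3, at 1.13 (SE 0.35) for anti-PD1 against anti-Lag3, adjusted p 0.285, with 3 groups that did not overlap. Of 10 nuclear regulators, 8 were tested, Ppargc1a and Ppara had under 10 reads, and none had an unadjusted p under 0.05. Ppargc1b, a coactivator of mitochondrial genes, was at -0.68 (SE 0.35) for anti-PD1 against anti-Lag3, with overlapping groups. Gabpa, an ETS factor of respiratory genes, had 32.0 and 31.4 CPM in isotype, 44.1 and 37.2 in anti-PD1, and 40.9 and 34.9 in anti-Lag3. mt-Rnr1, the small ribosomal RNA of mitochondria, had a log2 fold change of -0.21 (SE 0.06) with anti-Lag3 against isotype, adjusted p 0.365, opposite in sign to mt-Nd1. It took 2.33 and 2.09% of counts in isotype, 2.15 and 2.05% in anti-PD1, and 1.95 and 2.05% in anti-Lag3. Isotype replicate 1 thus stood apart from the other libraries.

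Promoters of the nuclear genes were read from RefSeq (GRCm38.p6, 250 bases before to 50 after each start), with 74 of 87 genes matched. Cox6c, Ndufb9, Atp5a1, Uqcrq and Cox4i1 were among those with no entry. The letters GCGCANGCGC, as NRF1 is known to bind, were found on either strand in 19 of 74 genes (25.7%), against 7.17% of 17491 protein-coding genes with a window of the same length. CCGGAAG, of the ETS family to which GABPA belongs, was in 24.3% against 12.9%, ATGGCGG, of YY1, in 16.2% against 6.05%, and GGGCGGG, of SP1, in 36.5% against 36.9%. The protein-coding genes compared were not limited to genes with reads here, unlike the OXPHOS genes. No matches of different motifs overlapped in the windows of the OXPHOS genes. Cox6a1, Sdhd and Atp5b, each with an unadjusted p under 0.05 between the antibodies, are shown upstream of the annotated exons, with motif letters in capitals. The labels count matches within the printed stretch. Beyond it or across its end, the windows also held 1 ETS match for Cox6a1, 1 NRF1 match and 1 SP1 match for Sdhd, and 1 YY1 match for Atp5b.

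Cox6a1 (chr5:115348982-115349129, minus strand; 2 NRF1 matches and 1 SP1 match): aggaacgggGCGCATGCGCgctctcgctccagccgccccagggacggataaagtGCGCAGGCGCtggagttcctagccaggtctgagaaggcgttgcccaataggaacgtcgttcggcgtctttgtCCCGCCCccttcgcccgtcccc
Sdhd (chr9:50603850-50603909, minus strand; 1 ETS match): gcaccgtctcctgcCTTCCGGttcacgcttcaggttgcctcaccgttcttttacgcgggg
Atp5b (chr10:128083073-128083272, plus strand; 1 SP1 match): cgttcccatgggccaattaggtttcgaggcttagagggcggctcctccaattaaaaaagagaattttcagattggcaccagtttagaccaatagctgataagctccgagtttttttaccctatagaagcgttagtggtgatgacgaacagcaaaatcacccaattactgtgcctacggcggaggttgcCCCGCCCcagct

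The genes were also split by motif. Of 19 genes with an NRF1 match, 6 were lower in both anti-PD1 samples than in both anti-Lag3 samples (17.7% of all genes) and 2 higher (18.2%). Their median log2 fold change was -0.10. Of 55 without it 24 were lower and 2 higher, with a median of -0.12. In that comparison the medians with and without the ETS letters were -0.22 (18 genes) and -0.10 (56 genes). For SP1 they were -0.12 (27 genes) and -0.12 (47 genes), and for YY1 -0.11 (12 genes) and -0.12 (62 genes). Against isotype, anti-PD1 gave -0.15 and -0.01 for NRF1, -0.07 and -0.03 for ETS, -0.11 and -0.01 for SP1, and -0.01 and -0.07 for YY1. Anti-Lag3 against isotype gave, in the same order, -0.07 and 0.10, 0.15 and -0.002, -0.06 and 0.07, and -0.002 and 0.06. Differences between genes with and without a match were not tested.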

How the data were processed

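The authors trimmed 3′ tag libraries (QuantSeq) with BBDuk, aligned them to GRCm38 (mm10) with STAR 2.5.2a and counted reads per gene with HTSeq. The strand setting and annotation release are not given in the sources used here. The deposited counts were used as they stand. A deposited table of regularised log values was not used. Symbols came from GENCODE (GRCm38). Genes with at least 10 reads over the 6 samples were tested with edgeR 4.0.16 (quasi-likelihood, TMM, all 6 samples in 1 fit) in R 4.3.3, with Benjamini-Hochberg adjustment over 11877 genes and a threshold of 0.05. CPM are TMM-scaled except for marker sums. DESeq2 1.42.0 and limma-voom (limma 3.58.1) were alternatives. The script was tested on simulated data.

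Named genes were, for each complex, the nuclear gene with the highest mean and the smallest p in each comparison among those with a mean of at least 20 CPM, all mitochondrial genes, Cox5a, Ndufa4, mt-Co1, the paralog sets, the assembly factor of smallest p, and in each companion list the genes of smallest p. Ndufa12, Ndufab1, Ndufb6, Ndufaf2 and Atp5e were named after their values were seen. The OXPHOS genes, the companion lists and the tests were chosen with earlier results of these data known. The study's methods describe the sorted samples as biological replicate mice, stained one by one. The labels only number them. The methods also say that the 3 samples of the excluded replicate were sorted and handled together, but no label says that a number marks a batch. Over all genes tested, differences between replicates 1 and 2 were almost uncorrelated between groups (correlations 0.021, 0.018 and -0.010), and the number was not used as a block. Some abundant RNAs did differ in the same direction. Gm42418 took 21.0, 19.1 and 18.7% of counts in replicate 1 of isotype, anti-PD1 and anti-Lag3, and 19.4, 17.7 and 17.4% in replicate 2. Mitochondrial rRNA took 7.26, 7.04 and 6.57%, against 6.38, 6.43 and 6.39%. Shared handling by number was not tested. The last 300 bases of transcripts were aligned with blastn 2.17.0+ to all GENCODE transcripts.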

Additional observations from a re-analysis of the deposited data

How the results depend on the processing

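In anti-PD1 against anti-Lag3, 0 OXPHOS genes were called under every alternative run. In anti-PD1 against isotype the count was 0 except without isotype replicate 1, so that it ranged from 0 to 1 over the samples left out, and the 1 gene was mt-Nd3 (adjusted p 0.0063) with the isotype group then at 0 reads. In anti-Lag3 against isotype it was 2 with no filter beyond 1 read (mt-Nd1 and mt-Nd3), 1 by limma-voom (mt-Nd1), and 0 to 1 over the samples left out (mt-Nd3 without isotype replicate 1, mt-Nd1 without anti-Lag3 replicate 2). In these fits the sample left alone in its group is assumed to vary like the others. The replicate block called 0 OXPHOS genes in each comparison and 144, 6 and 46 genes of all, against 107, 5 and 36. Leaving out samples, the median log2 fold change of the nuclear genes ranged from -0.048 to 0.00904 in anti-PD1 against isotype, 0.012 to 0.067 in anti-Lag3 against isotype and -0.123 to -0.064 in anti-PD1 against anti-Lag3, and that of the mitochondrial genes from 0.053 to 0.089, -0.024 to 0.042 and 0.032 to 0.071. Upper quartile scaling gave 0.054 for the mitochondrial genes in anti-PD1 against isotype. The complex V medians, an alternative chosen after seeing the data, ranged from -0.043 to 0.054, 0.102 to 0.150 and -0.218 to -0.133. The log2 ratio of the nuclear share of counts, anti-Lag3 to isotype, was 0.130, or 0.081 without Gm42418 and mitochondrial rRNA in the total and 0.069 in TMM-scaled CPM. The cause of these changes was not tested. Genes under about 20 CPM, and all mitochondrial genes that share their 3′ sequence with a nuclear copy, are limited by depth or by mapping.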
